A study of Homo sapiens with 8 samples.

Results

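The keratin-associated protein genes (KRTAP) were examined for H3K9me3 and H3K4me3 in SUM159 cells, an established triple-negative breast cancer line. Members were the protein-coding genes of GENCODE release 44 on chromosomes 1 to 22 whose symbol starts with KRTAP. There were 94 of them among 19111 autosomal protein-coding genes. The rule itself uses no measured value. Neighbouring starts at most 500 kb apart on a chromosome were joined into a cluster, which gave 5 clusters on chromosomes 11, 17 and 21.

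Keratin-associated proteins fill the space between the keratin filaments of the hair shaft and are cross-linked to them through cysteine. They are made late in hair follicle differentiation, and the families are known as high sulphur, ultra-high sulphur and high glycine-tyrosine proteins. H3K9me3 is a mark of condensed, repressed chromatin, and H3K4me3 marks the start of transcribed genes. The KRAB domain used in the study recruits enzymes that deposit H3K9me3 at a targeted gene.

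The cells had been transduced with a lentiviral vector that expresses dCas9-KRAB from the ubiquitin C promoter and had been selected with puromycin. All gRNA cells also carried 4 guides to the ZEB1 promoter, and No gRNA cells carried the same vector without a guide. Native ChIP-seq gave 2 libraries per group and mark, 8 in all, labelled as biological replicates. The lists of broad peaks hold no read counts, so depth was unknown, and each value is the share of a window covered by all deposited peaks. Windows were centred on the start of transcription (TSS) and reached 10 kb to each side for H3K9me3 and 1 kb for H3K4me3.

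ZEB1, the targeted gene, was 79.4% and 82.0% covered by H3K9me3 peaks in the All gRNA libraries, against 4.57% and 1.33% in the No gRNA libraries, as the labels say. For H3K4me3 the same gene stood at 0% in replicate 1 and 100% in replicate 2 of both labelled groups. The labels of All gRNA replicate 2 and No gRNA replicate 1 also disagree with the names of their files. By file name, ZEB1 stood at 0% in both All gRNA libraries and 100% in both No gRNA libraries. The paper reports a loss of H3K4me3 at this promoter in All gRNA cells. Every H3K4me3 library is still called here by its label, and no direction between groups is firm for that mark. The promoters of GAPDH, VIM and FN1 were 100% covered by H3K4me3 in 4 of 4 libraries, and ACTB was 75.1% to 100% covered. VIM and FN1 are mesenchymal genes, but full cover by all deposited peaks does not identify a cell line. The median H3K4me3 share of all promoters was 95.1% to 100% per library. H3K9me3 peaks covered 656 to 692 Mb of the autosomes per library and H3K4me3 peaks 610 to 913 Mb.

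Clusters 1 and 2 lay on chromosome 11, at 1585283 to 1697195 and at 71527267 to 71603353 (hg38, first to last TSS). They held 6 and 5 genes, all of the KRTAP5 family. Cluster 3 lay on chromosome 17 at 40994164 to 41315710 and held 34 genes of the families KRTAP1 to KRTAP4, KRTAP9, KRTAP16, KRTAP17 and KRTAP29. Cluster 4 lay on chromosome 21 at 30282950 to 31038476 and held 33 genes of 15 families, among them the glycine- and tyrosine-rich KRTAP6, KRTAP8, KRTAP19 and KRTAP20. Cluster 5 lay on the same chromosome at 44540195 to 44697172 with 12 KRTAP10 and 4 KRTAP12 genes, all 16 inside the larger gene TSPEAR. All 94 longest coding transcripts had a single exon.

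The promoters of these genes were mostly poor in CG. Their G+C content varied, from 31.3% at KRTAP19-6 to 62.7% at KRTAP10-6. Of the 94 genes, 80 had a promoter sequence in RefSeq (GRCh38.p14, 250 bases before to 50 bases after the start). TATAAA, the core of the TATA box, was found anywhere on either strand in 64 of the 80 (80.0%), against 10.6% of 10805 promoters of the same length. The nearest copy before the start on the coding strand began 20 to 40 bases upstream in 33 of the 80, against 4.55% of the 10805. CACCTG, the E-box that ZEB1 binds, was found in 17 of 80 (21.2%), against 20.0% of all promoters. The median promoter held 2 CG dinucleotides, against 23 over all. For each cluster, the 100 bases before the start are shown for the member with the highest H3K9me3 that had a sequence, with TATAAA and CACCTG on either strand in capitals. They show 1 CG-poor start from each cluster, the only sequence available in clusters 1 and 2, beside the H3K9me3 values that follow. Coordinates are of GRCh38.p14.
KRTAP5-3, cluster 1, chr11:1608464-1608563, minus strand: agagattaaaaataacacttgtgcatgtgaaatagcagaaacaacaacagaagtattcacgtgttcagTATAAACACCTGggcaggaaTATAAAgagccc
KRTAP5-9, cluster 2, chr11:71548320-71548419, plus strand: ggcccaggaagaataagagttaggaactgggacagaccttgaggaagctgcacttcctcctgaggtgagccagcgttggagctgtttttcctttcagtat
KRTAP9-1, cluster 3, chr17:41189787-41189886, plus strand: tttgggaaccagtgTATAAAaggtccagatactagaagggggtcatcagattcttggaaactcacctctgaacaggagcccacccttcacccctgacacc
KRTAP11-1, cluster 4, chr21:30881581-30881680, minus strand: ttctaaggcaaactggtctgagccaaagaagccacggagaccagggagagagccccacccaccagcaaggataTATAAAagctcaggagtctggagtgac
KRTAP10-5, cluster 5, chr21:44580605-44580704, minus strand: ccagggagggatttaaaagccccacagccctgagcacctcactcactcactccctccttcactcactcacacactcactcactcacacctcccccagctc

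KRTAP9-1 and KRTAP11-1 carried TATAAA within these 100 bases, although their H3K9me3 shares were far apart. KRTAP5-3 carried it beside CACCTG, and the stretches of KRTAP5-9 and KRTAP10-5 carried neither motif. Some promoters were close copies of each other. In cluster 3, 7 of 33 promoters were at least 90% identical to another of the cluster (median of the highest identity 78.3%), against 0 of 30 in cluster 4 and 0 of 15 in cluster 5 (75.0%). Reads from near-identical copies may have been placed at either, and how the authors' alignment treated them was not given in the sources used here. Values of single members of such pairs are uncertain for that reason. Clusters 1 and 2 had 1 promoter sequence each, so no identity was computed there. Whether the placing of reads affected their values, also where no peak was found, was not tested.

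The clusters differed widely in H3K9me3. Cluster 4 was marked throughout, clusters 2 and 5 in part, cluster 3 over a short stretch and cluster 1 in no library. Over the merged windows of cluster 4, peaks covered 70.5% and 72.8% in All gRNA versus 65.2% and 66.98% in No gRNA. Cluster 2 was 26.9% and 40.1% covered in All gRNA versus 30.7% and 45.2% in No gRNA. Cluster 5 was 27.0% and 31.9% covered in All gRNA versus 27.4% and 39.9% in No gRNA. These 2 clusters overlapped in level, and cluster 2 was above cluster 5 in 3 of 4 libraries. Cluster 3 was 2.51% and 4.00% covered in All gRNA versus 4.28% and 2.83% in No gRNA. Cluster 1 stood at 0% in 4 of 4 libraries.

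Of the 10 pairs of clusters, the other 9 kept their order in 4 of 4 libraries. Cluster 4 exceeded cluster 5 by 37.3 points ± 7.23 (SD over 4 libraries) and cluster 3 by 65.5 points ± 3.67. The exact sign-flip permutation test over libraries, two-sided, gave p = 0.125 for each of these 9 pairs, the smallest p that 4 libraries allow (adjusted p = 0.139 over the 10 pairs). The same exact permutation test gave p = 0.25 for clusters 2 and 5. The libraries served as replicates. The genes of a cluster did not, since their windows overlap.

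**Figure D1:**
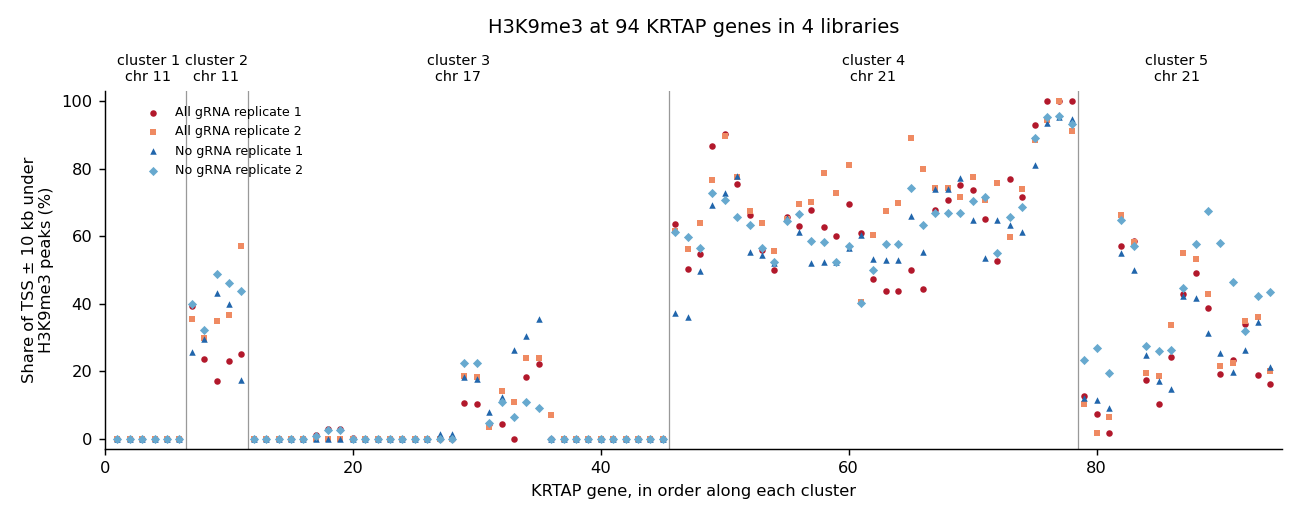
Share of TSS ± 10 kb covered by H3K9me3 peaks (%) at each of the 94 KRTAP genes, in order along the 5 clusters, with a point for each of the 4 libraries. Every gene of cluster 1 lies at 0%, a run of genes within cluster 3 rises to a mean of at most 22.6%, and the genes of cluster 4 have means from 50.4% to 97.7%.

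Cluster 4 carried the highest shares. All 33 members had an H3K9me3 peak in 4 of 4 libraries, and 23 were at least 50% covered in 4 of 4. KRTAP11-1, classed with the high sulphur proteins, was 100% covered in both All gRNA libraries, against 95.2% and 95.5% in No gRNA. Its neighbours at that end were nearly as full. KRTAP7-1 was 100% and 94.3% covered in All gRNA versus 93.6% and 95.4% in No gRNA, and KRTAP19-8 was 100% and 91.2% covered against 94.8% and 93.2%. KRTAP8-1 was 92.9% and 88.6% covered in All gRNA versus 81.1% and 89.1% in No gRNA. These 4 genes were the last of the cluster, and their groups overlapped except at KRTAP11-1. The lowest member was KRTAP19-6, a glycine- and tyrosine-rich protein gene, at 60.8% and 40.5% in All gRNA versus 60.3% and 40.1% in No gRNA. It lay in the middle of the cluster, and its libraries split by replicate number and not by group.

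Bins of 20 kb showed that the cluster lay beside a more fully marked region. In the 25 bins before the first start the mean over the 4 libraries ran from 33.2% to 81.0%, with a median of 51.9%. The 38 bins between the outer starts had a median of 69.3%. In the 25 bins after the last start the median was 100%, and 17 bins were completely covered in 4 of 4 libraries. Within the merged windows, 51.4% of the bases were covered in 4 of 4 libraries and 82.7% in at least 1, so 62.1% of the bases covered in any library were covered in all. The same share was 15.1% in cluster 5, 7.87% in cluster 2 and 4.97% in cluster 3. The longest peak touching the cluster was 62458 bases long in All gRNA replicate 1, 53534 in All gRNA replicate 2, and 32926 and 33033 in the No gRNA libraries.

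**Figure D2:**
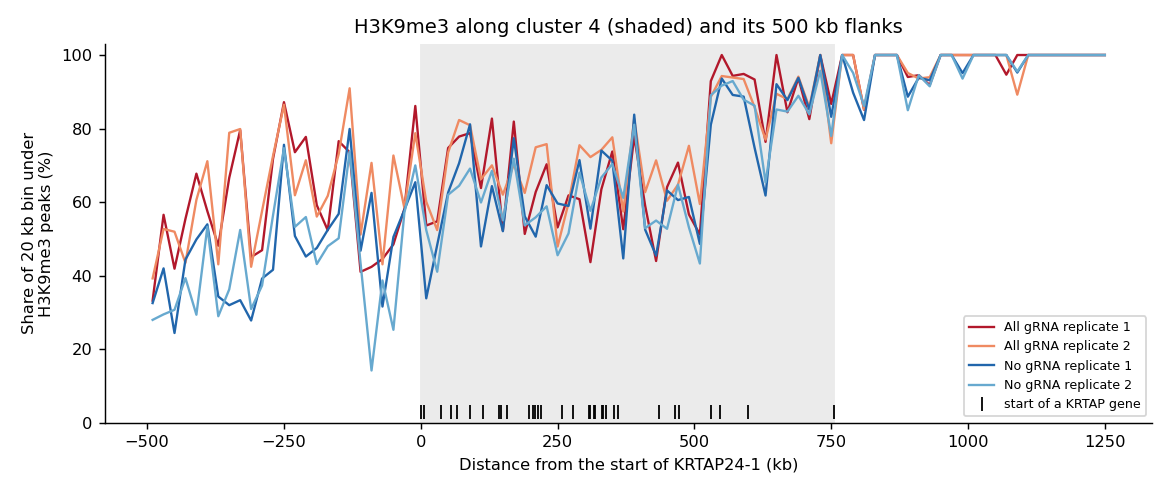
Share of 20 kb bins covered by H3K9me3 peaks (%) against the distance from the start of KRTAP24-1 (kb), with a line for each library, the span of cluster 4 shaded and the starts of its genes as ticks. The lines run at a median of 69.3% within the cluster and reach 100% after its last start.

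Peaks in cluster 4 were broad and low. Their median fold enrichment, as MACS2 gave it, was 1.90 and 1.80 in All gRNA versus 1.89 and 1.90 in No gRNA, against medians of 1.58 to 1.65 over the whole lists. The lowest q was 0.00140 and 0.0173 in All gRNA versus 0.00472 and 2.27e-05 in No gRNA. With only peaks at q ≤ 0.05, the merged windows of cluster 4 were 24.5% and 20.8% covered in All gRNA versus 6.29% and 42.9% in No gRNA. The 2 No gRNA libraries then lay on either side of both All gRNA libraries. At that threshold 32 of the 33 members had a peak in some library, against 13.7% of all promoters. A peak in 4 of 4 libraries was found at 8 of them, against 346 of all 19111 promoters. In the other clusters 6 members of 61 had such a peak in any library, 1 in cluster 2 and 5 in cluster 5. The median fold of all deposited peaks was 1.54 to 1.62 in cluster 2 and 1.56 to 1.62 in cluster 5. In every library both lay below the median of the whole list.

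Cluster 5 was uneven. KRTAP10-4 was 57.1% and 66.2% covered in All gRNA versus 55.1% and 64.7% in No gRNA, and the next gene along, KRTAP10-5, 58.5% and 58.3% against 50.02% and 57.0%. Both were at least 50% covered in every library. KRTAP10-3, the gene just before them, was 1.54% and 6.38% covered in All gRNA versus 9.06% and 19.3% in No gRNA. The 16 members had means from 9.07% to 60.8%, and all had a peak in 4 of 4 libraries. These genes code for high sulphur proteins of the hair cuticle.

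The KRTAP5 genes code for ultra-high sulphur proteins, and their clusters on the same chromosome differed. In cluster 2 the 5 members had means from 28.9% at KRTAP5-8 to 36.4% at KRTAP5-10, with a peak at each in 4 of 4 libraries. In cluster 1 the 6 members, KRTAP5-1 to KRTAP5-6, had no H3K9me3 peak within 10 kb of the start in any library. Of all promoters, 9.47% had none. The proteins of both clusters were rich in cysteine, with a median content of 32.4% in cluster 1 and 35.3% in cluster 2.

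In cluster 3, 20 of 34 members had no H3K9me3 peak in any library. The 7 genes in a row from KRTAP4-6 to KRTAP9-1 had means of 5.12% to 22.6%, and 6 members of the cluster had a peak in 4 of 4 libraries. KRTAP9-1, an ultra-high sulphur protein gene and the highest of the cluster, was 22.1% and 23.98% covered in All gRNA versus 35.3% and 9.02% in No gRNA. The No gRNA libraries lay on either side of those of All gRNA. The members outside that row were covered by at most 6.87% in any library, a value reached by KRTAP9-2 in All gRNA replicate 2.

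Over all 94 members, the mean H3K9me3 share was 30.4% and 34.3% in All gRNA versus 30.1% and 33.3% in No gRNA. All other promoters had means of 11.5% and 12.5% in All gRNA versus 12.7% and 13.9% in No gRNA. The members were 19.4 points ± 1.82 (SD over 4 libraries) higher, in 4 of 4 libraries. The exact sign-flip permutation test, two-sided, gave p = 0.125, the smallest it can give (adjusted p = 0.125 over 8 comparisons). The difference rested on cluster 4, and without its 33 genes it was 0.30 points (p = 0.75, same exact permutation test). It was 5.40 points with peaks at q ≤ 0.05 and -0.23 points at q ≤ 0.01. An H3K9me3 peak was found in every library at 60 of the 94 members, against 49.4% of all promoters. At least 50% was covered in every library at 25 members, against 4.29% of all promoters, and 23 of the 25 belonged to cluster 4. The 26 members without a peak in any library were the 6 of cluster 1 and 20 of cluster 3.

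Protein-coding genes within 500 kb of the clusters were less covered than the members of clusters 2, 4 and 5, and more than those of clusters 1 and 3. Members exceeded their neighbours by 26.3 points ± 7.26 (SD over 4 libraries) in cluster 2, 17.8 points ± 8.62 in cluster 4 and 23.1 points ± 5.53 in cluster 5. They lay below them by 7.14 points ± 0.97 in cluster 1 and 4.42 points ± 1.99 in cluster 3. The value of cluster 4 differed by group, since its members had means of 67.2% and 73.0% in All gRNA versus 63.1% and 65.5% in No gRNA, while its neighbours had 55.2% and 64.1% against 37.8% and 40.5%. Clusters 2 and 5 lay above their neighbouring promoters but not above all of their surroundings. The 25 bins of 20 kb before the first start of cluster 2 had a median of 66.1%, against 29.3% between its outer starts. Those before cluster 5 had a median of 2.35% but reached 86.4%, against at most 46.7% between its outer starts. Each of these 5 orders held in 4 of 4 libraries, with p = 0.125 in the exact sign-flip permutation test (adjusted p = 0.125). Cluster 4 had only 3 such neighbours, GRIK1, CLDN17 and CLDN8, and 1.71 other protein-coding genes per Mb, against 12.1 to 28.8 around the other clusters. The 55 keratin genes, whose proteins form the filaments, had means of 7.84% and 8.18% in All gRNA versus 9.71% and 13.5% in No gRNA. They lay 22.2 points ± 2.86 (SD over 4 libraries) below the KRTAP genes.

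No member was called between the groups for H3K9me3. A promoter was called when the lowest library of a group lay at least 25 points above the highest of the other. By that rule 0 of 94 members were higher in All gRNA and 0 were lower, against 0.162% and 0.0366% of all promoters. The mean over members was 32.3% ± 2.78 (SD, n = 2) in All gRNA and 31.7% ± 2.28 (SD, n = 2) in No gRNA. The difference of 0.64 points was smaller than either SD (exact permutation test, two-sided, p = 0.67, where 0.33 is the smallest p the 6 labelings allow). It turned to -2.13 points without cluster 4. The groups did not overlap, with All gRNA higher, at 13 members (13.8%), against 9.98% of all promoters, and with All gRNA lower at 8 members (8.51%), against 25.2%. The median over all promoters was 3.25% and 4.43% in All gRNA versus 6.34% and 7.32% in No gRNA, lower in both All gRNA libraries.

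Cluster 4 was the only cluster whose groups did not overlap over its merged windows, cluster 1 at 0% aside. It was 71.7% ± 1.62 (SD, n = 2) covered in All gRNA and 66.1% ± 1.27 (SD, n = 2) in No gRNA, a difference of 5.61 points (exact permutation test, two-sided, p = 0.33, adjusted p = 0.83 over the 5 clusters). The mean was higher in All gRNA at 32 of its 33 members, against 30.6% of all promoters, and at 11 of them the groups did not overlap, against 9.98%. Since neighbouring windows share bases, these are not 32 separate events. KRTAP23-1 had the largest gap, at 90.3% and 89.7% in All gRNA versus 72.8% and 70.8% in No gRNA. KRTAP19-5 was 69.5% and 81.2% covered in All gRNA versus 56.5% and 57.2% in No gRNA. KRTAP19-2 was 67.7% and 70.1% covered against 51.9% and 58.5%, and KRTAP19-4 was 59.9% and 72.8% covered against 52.2% and 52.2%. These genes lay at 2 places, KRTAP23-1 near the start of the cluster and the KRTAP19 genes next to each other. The difference was not confined to the cluster. The 25 bins of 20 kb before its first start had means of 59.7% and 62.8% in All gRNA versus 47.1% and 44.01% in No gRNA, a wider split than between the outer starts, where they were 72.0% and 74.7% against 68.1% and 67.5%. The direction depended on the peaks kept. At q ≤ 0.05 the mean was higher in All gRNA at 7 of the 33 members and lower at 25, and the difference over the cluster was -1.98 points.

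**Figure D3:**
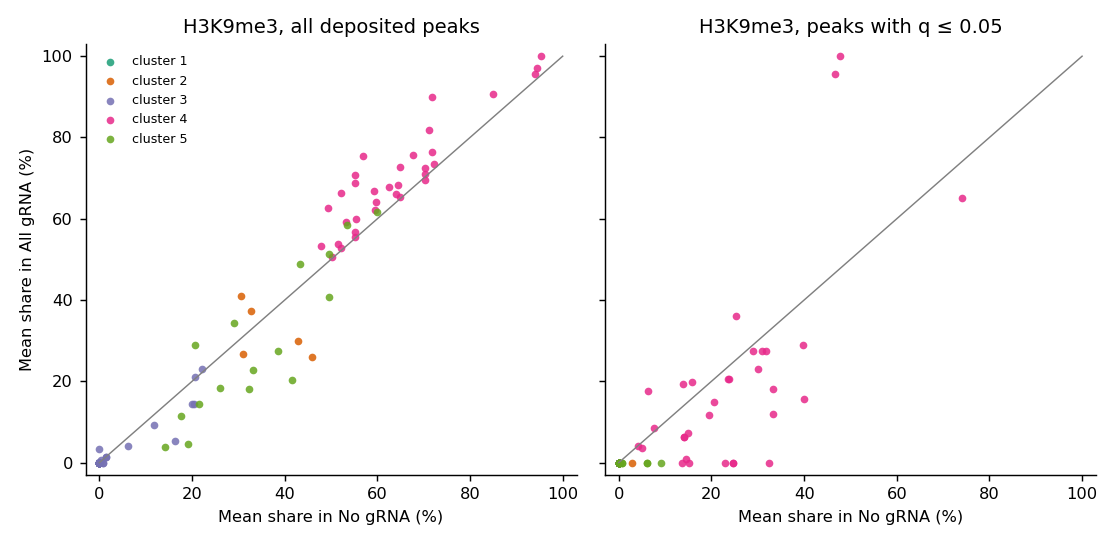
Mean H3K9me3 share of TSS ± 10 kb in the 2 All gRNA libraries (%) against the mean in the 2 No gRNA libraries (%), with a point per KRTAP gene coloured by cluster and a line of equality, for all deposited peaks (left) and for peaks at q ≤ 0.05 (right). On the left 32 of 33 genes of cluster 4 lie above the line, and on the right 7 do.

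In the other clusters the difference between groups lay within the spread of all 4 libraries. All gRNA minus No gRNA was -4.45 points in cluster 2, -0.30 in cluster 3 and -4.18 in cluster 5 (exact permutation test, two-sided, p = 0.67 for each). Each difference was smaller than the SD over the 4 libraries of its cluster, which was 8.40, 0.86 and 5.99 points. That SD includes the difference between replicates. Compared by replicate number, All gRNA was lower in both replicates of clusters 2 and 5. The exact permutation test with the replicate number as a block gave p = 0.5 for each, the smallest it allows. KRTAP5-9 had the largest gap toward No gRNA, at 17.03% and 34.9% in All gRNA versus 43.1% and 48.8% in No gRNA. Near 2 clusters, genes that are no members were called higher in All gRNA. GRIK1, a glutamate receptor gene before cluster 4, was 75.4% and 84.3% covered in All gRNA versus 28.6% and 36.9% in No gRNA. SHANK2, a synaptic scaffold gene before cluster 2, was 79.4% and 84.9% covered in All gRNA versus 45.2% and 37.8% in No gRNA. Of the 90 neighbours these were the only 2 called for this mark in either direction.

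H3K4me3 was low at the KRTAP genes in 4 of 4 libraries. The libraries labelled All gRNA had means over the members of 15.9% and 15.3%, and those labelled No gRNA 16% and 16.97%, and the median member stood at 0% in each. All other promoters had means of 70.3%, 73.7%, 67.3% and 75.5% in the same order. Members lay 55.7 points ± 3.49 (SD over 4 libraries) lower, in 4 of 4 libraries (exact sign-flip permutation test, two-sided, p = 0.125, adjusted p = 0.143 over 8 comparisons). Without cluster 4 the difference was -52.1 points. A peak was found in every library at 9 of the 94 members, against 73.4% of all promoters. No member was at least 50% covered in every library, against 56.1% of all promoters. At q ≤ 0.05 none of the 94 members had an H3K4me3 peak in any library, while 9.64% to 54.0% of all promoters had one per library. The lowest q of a peak in the members' windows was 0.134.

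**Figure D4:**
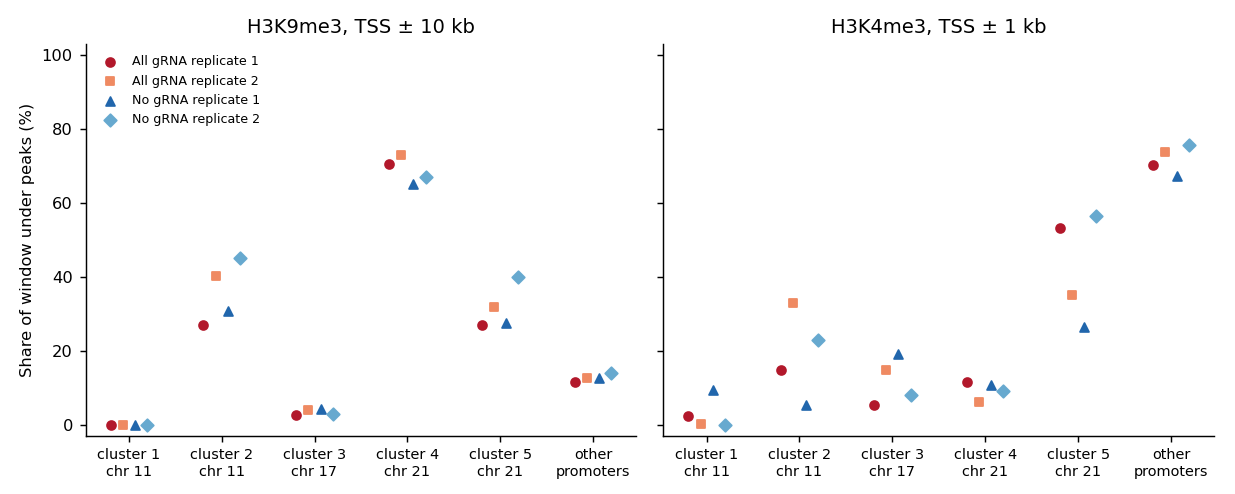
Share of the merged windows of each KRTAP cluster covered by H3K9me3 peaks (left) and H3K4me3 peaks (right), in %, with a point for each library as labelled and the mean of all other promoters beside them. Cluster 4 is the highest of the clusters for H3K9me3 and cluster 5 for H3K4me3, where 4 of 4 libraries of each cluster lie below the mean of the other promoters.

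Cluster 5 carried the most of these weak H3K4me3 peaks. Its windows were 53.2% and 35.0% covered in the libraries labelled All gRNA, against 26.3% and 56.3% in those labelled No gRNA. Cluster 4 was covered at 11.4%, 6.14%, 10.6% and 9.22% in the same order, and cluster 5 exceeded it by 33.3 points ± 14.1 (SD over 4 libraries), in 4 of 4 libraries (exact sign-flip permutation test p = 0.125, adjusted p = 0.208 over 10 pairs). Only 0.78% of the bases of cluster 5 were covered in 4 of 4 libraries, although 88.0% were covered in at least 1. The 5 highest members were KRTAP10-4 with a mean of 69.3%, KRTAP4-6 with 64.7%, KRTAP13-4 with 63.2%, KRTAP10-7 with 56.9% and KRTAP10-2 with 56.0%. KRTAP10-4 was 100%, 72.2%, 69.1% and 36.0% covered, and it was also the member of cluster 5 with the most H3K9me3. KRTAP4-6 was 0%, 79.8%, 100% and 79.1% covered, and KRTAP13-4 89.95%, 15.8%, 57.7% and 89.3%. At KRTAP4-6 the libraries labelled All gRNA thus stood at 0% and 79.8%, so replicates of 1 group could differ by most of the scale.

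By label, 1 member was called higher and 2 lower in All gRNA for H3K4me3, against 1.78% and 2.22% of all promoters. KRTAP16-1 was 37.6% and 36.9% covered in the libraries labelled All gRNA, against 0% in both labelled No gRNA. KRTAP10-8 stood at 0% in both libraries labelled All gRNA, whereas those labelled No gRNA had 46.7% and 58.1%. KRTAP10-5 was 0% and 26.8% covered against 55.7% and 54.9%. These 3 calls rest on the labels, since the groups overlap at each gene when the libraries are read by the condition in their file names. The groups did not overlap, with the libraries labelled All gRNA higher, at 8 members, against 6.24% of all promoters, and with them lower at 4 members, against 7.51%. KRTAP10-9 was 58.5% and 59.2% covered in the libraries labelled All gRNA, against 35.0% and 0% in those labelled No gRNA. KRTAP5-9 was 32.8% and 49.6% covered against 13.2% and 0%. The mean over members differed by -0.90 points (exact permutation test, two-sided, p = 0.33, the smallest possible). Without the libraries whose file names give the other condition, a single library remained per group, which allowed no test.

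Other genes of the hair shaft were read by the same rule. Of 17 hair keratins, the filament partners of these proteins, 0 were called for either mark. Of all promoters, 0.162% were called higher and 0.0366% lower for H3K9me3, and 1.78% and 2.22% for H3K4me3. A count of 0 among so few genes does not set them apart. Of 10 hair shaft regulators and structural genes, DSG4, a desmosomal cadherin of the hair follicle, was called for H3K4me3. It stood at 49.0% and 52.4% in the libraries labelled All gRNA, against 0% in both labelled No gRNA. Its groups overlap when the libraries are read by file name. The median H3K4me3 share of these 10 genes was 67.1%, against 87.9% over all promoters. At least 50% was covered in every library at 3 of them, and 1 had no H3K4me3 peak in any library. HOXC13, a transcription factor of hair differentiation, was among the 3, at 100% in 4 of 4 libraries. For H3K9me3 the median of these 10 genes was 4.52%, against 5.75% over all promoters, and MSX2, another such factor, stood apart from it at 80.1% to 94.95%. Of all 55 keratin genes, 2 were called lower in All gRNA by label for H3K4me3, KRT6C and KRT71, against 2.22% of all promoters. The hair keratins were at least 50% covered by H3K4me3 in every library at 2 of 17, and the KRTAP genes at 0 of 94.

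Base composition and protein class differed between the clusters as well. The median G+C content of TSS ± 10 kb was 36.9% in cluster 4, 39.9% in cluster 3, and 48.6%, 48.0% and 48.5% in clusters 1, 2 and 5, against 45.4% over all promoters. Over the 94 members G+C content and mean H3K9me3 share had a Pearson correlation of -0.35 (Spearman -0.45), and over the 33 members of cluster 4 one of 0.88 (Spearman 0.86). Members of a cluster share bases, since their windows overlap, and all points share the same 4 libraries. Other promoters in the G+C range of cluster 4 (4035 of them) had a median H3K9me3 share of 7.79% and a 90th percentile of 31.7%, against a median of 65.2% for the members. The part of base composition in the difference between clusters was not tested. The proteins of cluster 4 were the shortest, with a median of 79 residues, and 42.3% of the residues of the median protein were glycine or tyrosine, against 3.07% to 26.7% in the other clusters. Their median cysteine content was 10.3%, against 25.8% to 35.3% elsewhere. Both classes of protein within cluster 4 were marked. The 4 KRTAP13 genes, of high sulphur type, had a median H3K9me3 share of 60.4%, and the 8 KRTAP19 genes, of glycine-tyrosine type, one of 62.5%.

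**Figure D5:**
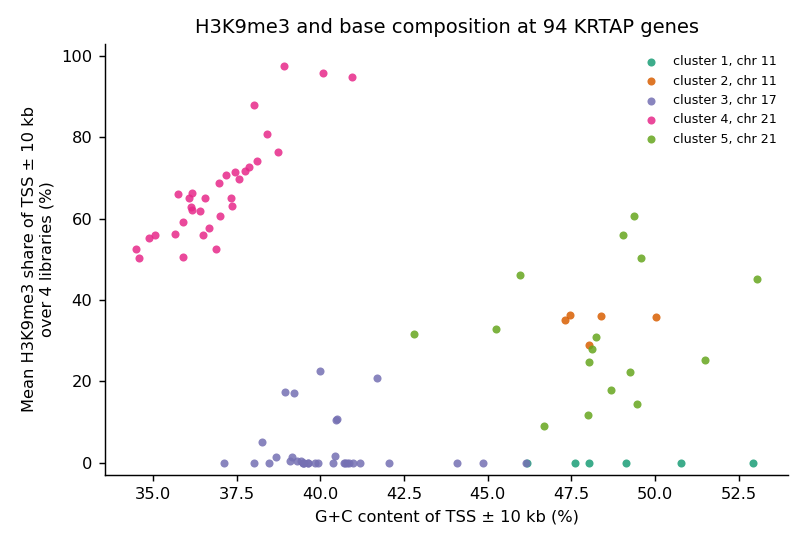
Mean H3K9me3 share of TSS ± 10 kb over the 4 libraries (%) against the G+C content of the same window (%), with a point per KRTAP gene coloured by cluster. Cluster 4 lies apart at low G+C and high H3K9me3, while the genes of cluster 3, some at similar G+C, lie between 0% and 22.6%.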

How the data were processed

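Native ChIP-seq peak lists of 8 SUM159 libraries were analysed, 1 list per library, grouped by GEO's labels. According to the study's methods, reads were trimmed, aligned to hg38 and called with MACS2 as broad peaks, after reads in excluded regions and duplicates were removed. The submitters' processing notes name Trimmomatic 0.33, Bowtie 1.1.2, MACS2 2.1.0 and bcl2fastq 2.17. The study's methods name fastp and bowtie2 instead. For each peak the authors deposited a score, a fold enrichment, and a −log10 p and −log10 q from MACS2. The deposited lists held peaks down to a −log10 p of about 1, and no read counts, so depth and counting error are unknown.

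Peaks were merged per library, and the percentage of each window they cover was computed (Python 3.11.15, NumPy 2.4.6, SciPy 1.17.1, Matplotlib 3.10.9). Start sites came from GENCODE release 44, and promoter sequences from RefSeq. Groups were compared with exact permutation tests over 6 labelings. Clusters and gene lists were compared with exact sign-flip permutation tests over 4 libraries, two-sided, with Benjamini-Hochberg adjustment. Over the libraries of a mark, p-values measure only the spread between these libraries. The scripts were tested on simulated data.

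Members and lists were chosen with earlier results of these data known. Genes were named by rule: the lowest and highest H3K9me3 member per cluster, members and hair shaft genes called, the 5 largest gaps per mark and the 5 highest H3K4me3 means. KRTAP7-1, KRTAP8-1, KRTAP19-8, KRTAP10-5 for H3K9me3, KRTAP4-6 and KRTAP9-2 for H3K9me3, GRIK1, SHANK2, HOXC13, MSX2, KRT6C and KRT71 were chosen after their values were seen. Alternatives were other peak thresholds, windows, gaps and equal covered length, and each library left out. Added after seeing the data were the comparisons of clusters with each other, every setting without cluster 4, every alternative for members against other promoters, and the settings without the H3K4me3 libraries whose file names give the other condition, except for the mean over members.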

Additional observations from a re-analysis of the deposited data

How the results depend on the processing

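Of 187 alternative values of 20 results, 131 kept their direction or size, 29 moved and 27 reversed, and the cause was not tested. The share of all promoters called is given only for the main setting. Counts of called members at other settings are therefore not results about the members. With a library left out, fewer values must clear the gap. The All gRNA minus No gRNA difference in mean H3K9me3 share over members was -1.91 points at q ≤ 0.05, -1.35 at q ≤ 0.01, -0.00585 at TSS ± 5 kb and -2.13 without cluster 4, and -1.32 to 2.60 with a library left out. With a library left out, H3K9me3 ranged from -11.7 to 2.81 points in cluster 2, -1.05 to 0.44 in cluster 3 and -10.4 to 2.08 in cluster 5, and members called lower from 0 to 1. Cluster 3 was 2.68 when centred on the median promoter, and cluster 4 was -1.98 at q ≤ 0.05. At a gap of 10 points 2 members were called higher. A peak in every library was found at 25 members when 50% cover was asked and at 8 at q ≤ 0.05 (346 of all 19111 promoters). Members minus other promoters was -0.23 points at q ≤ 0.01.

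For H3K4me3, equal covered length gave 3.22 points over members, 1.11 in cluster 1 and 2.57 in cluster 4, with 3 members called higher and 1 lower. Without the libraries whose file names give the other condition, differences were 2.21 points in cluster 1, -8.19 in cluster 2, 2.21 in cluster 4 and -3.17 in cluster 5, with 11 called higher, 13 lower and 21 with a peak in both libraries. Members called higher numbered 5 at a gap of 10 points, 3 at TSS ± 500 bases, and 0 at a gap of 50 points, q ≤ 0.05 or q ≤ 0.01. Members called lower numbered 0 at a gap of 50 points, q ≤ 0.05, q ≤ 0.01 or TSS ± 2 kb. A peak in every library was found at 0 members when 50% cover or q ≤ 0.05 was asked. With a library left out, the difference ranged from -8.20 to 1.18 points in cluster 1, -9.01 to 2.01 in cluster 3, -3.79 to 1.50 in cluster 4 and -12.3 to 17.8 in cluster 5, members called higher from 3 to 10 and lower from 5 to 15. KRTAP16-1, KRTAP10-8 and KRTAP10-5 thus rest on the gap and peaks chosen, and on the labels.

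Replicate numbers did not pair the samples: the correlation of replicate differences between groups was 0.027 for H3K9me3 and 0.014 for H3K4me3 over 19111 promoters. With the replicate number as a block the H3K9me3 difference over members was 0.64 points, as without it, and 0.5 is the smallest p that this exact permutation test allows.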
